A study of Caenorhabditis elegans with 2 samples.

Results

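The genes described here are 30 components of the Wnt signalling pathway of Caenorhabditis elegans, out of 19973 annotated protein-coding genes, and the values are MAB-9 binding signals at those genes. The genes were listed by name: 5 ligands, 6 receptors, 15 intracellular components, and 4 genes of secretion, inhibition and planar polarity. Each was given a window from 2000 bp upstream of its first annotated start to the gene end, and a gene counted as bound when the summit of a peak, its highest point, lay in that window. Binding had been profiled by chromatin immunoprecipitation and sequencing with an antibody against GFP. The animals were whole L1 larvae of strain RW12257, with the genotype st12257[mab-9::TY1::EGFP::3xFLAG] II, starved after bleaching and aged 6 hours. The tag sits in the endogenous mab-9 gene by CRISPR insertion, so the gene's own regulatory sequence drives the fusion, in a single engineered strain. There was 1 group of 2 biological replicates from separate biosamples, with no untagged, mutant or other-stage group, and the control libraries were not analysed here.

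MAB-9 belongs to the T-box transcription factors and is known for its part in hindgut and male tail development and in motor neurons. Wnt proteins are lipid-modified secreted ligands that bind Frizzled, ROR and Ryk receptors at the cell surface. In C. elegans they steer asymmetric cell divisions, the migration of neuroblasts and the fates of cells in the tail, and the signal reaches the TCF factor POP-1 through Dishevelled, the Axin and APC complex and several β-catenins with separate roles.

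The deposited files were lists of peaks without read counts, so the depth behind each value is unknown. The conservative list of 1431 peaks, which pools both replicates and keeps peaks with an irreproducible discovery rate of at most 1%, served to call genes bound. That rate is lower the better a peak's rank repeats between lists. A second pooled list had 1492 peaks. Each replicate also had a thresholded list of its own, with 824 peaks in replicate 1 and 869 peaks in replicate 2. Ranked lists without a threshold held 129095 peaks for the pool, 116030 for replicate 1 and 90836 for replicate 2, and gave a signal to nearly every gene. The signal is the authors' own value for each peak, in a unit the sources used here do not name. It comes from all cells of the larva together, so more cells with bound MAB-9 and more binding per cell cannot be told apart.

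Of the 30 Wnt pathway genes, 6 held a summit of the conservative list: mom-1, mig-5, wrm-1, cam-1, vang-1 and pop-1. The DNA under 5 of these summits is given first, since these are the stretches on which the account below rests. Each line is 201 bp centred on the pooled summit, 5′ to 3′ on the strand of the gene, from the RefSeq assembly of the ce11 build. Capitals mark the stretch from the summit of one replicate to that of the other.

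mom-1, chrX:6296454-6296654, plus strand: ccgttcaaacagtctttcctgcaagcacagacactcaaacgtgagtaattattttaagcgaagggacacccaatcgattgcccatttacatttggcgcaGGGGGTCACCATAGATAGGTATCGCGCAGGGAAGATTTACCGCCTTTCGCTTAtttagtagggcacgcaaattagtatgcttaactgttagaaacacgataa

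mig-5, chrII:8185099-8185299, minus strand: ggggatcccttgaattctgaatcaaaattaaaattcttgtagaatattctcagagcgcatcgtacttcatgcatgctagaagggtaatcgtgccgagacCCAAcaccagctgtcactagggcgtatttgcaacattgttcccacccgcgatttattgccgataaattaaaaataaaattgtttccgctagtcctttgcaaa

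wrm-1, chrIII:5721949-5722149, plus strand: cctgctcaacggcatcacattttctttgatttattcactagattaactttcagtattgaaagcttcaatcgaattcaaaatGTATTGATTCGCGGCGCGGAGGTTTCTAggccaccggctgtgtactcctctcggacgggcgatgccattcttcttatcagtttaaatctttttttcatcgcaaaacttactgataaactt

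cam-1, chrII:9299839-9300039, minus strand: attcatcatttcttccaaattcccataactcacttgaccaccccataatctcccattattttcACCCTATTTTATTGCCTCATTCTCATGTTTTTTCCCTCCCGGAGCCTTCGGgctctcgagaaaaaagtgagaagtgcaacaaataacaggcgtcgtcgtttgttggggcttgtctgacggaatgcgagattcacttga

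vang-1, chrX:2885399-2885599, plus strand: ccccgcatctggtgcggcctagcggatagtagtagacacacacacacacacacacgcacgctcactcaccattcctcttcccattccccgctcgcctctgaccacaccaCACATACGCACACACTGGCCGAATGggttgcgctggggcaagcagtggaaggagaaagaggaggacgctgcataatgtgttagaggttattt

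The summits of the replicates lay 3 bp apart at mig-5, 24 bp at vang-1, 27 bp at wrm-1, 50 bp at cam-1 and 52 bp at mom-1. Of the printed bases, 40 at the left end of the mom-1 window belong to a coding exon, and the other windows held none of coding sequence.

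The 6 bound genes were 20% of the 30 Wnt pathway genes (exact binomial 95% interval 7.71 to 38.6%, which treats genes as independent and does not cover replicate differences), against 7.75% of all protein-coding genes (1548 of 19973). Wnt pathway genes had long windows, with a median of 6676.5 bp (4198 to 24414 bp), against 4027 bp over all genes (2030 to 104756 bp), and over all genes the longest windows held summits most often. All genes were cut by window length into 5 classes of like size. In the longest class, from 6321 bp up, 4 of 17 Wnt pathway genes (23.5%) were bound, against 13.7% of all genes. In the next class, from 4490 to 6321 bp, 2 of 11 (18.2%) were bound, against 7.96%. In the middle class, 0 of 2 were bound, against 6.13%, and the shorter classes held no Wnt pathway gene. Weighting all genes by the window lengths of the Wnt pathway genes raised their share to 11.1%, which lies within the interval of the Wnt pathway genes, as 7.75% does.

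The other lists gave fewer bound Wnt pathway genes. The second pooled list held summits at 5 of 30 (16.7%), against 8.00% of all genes, and lacked pop-1. The thresholded list of replicate 1 held summits at 3 of 30 (10%), namely wrm-1, mig-5 and mom-1, against 5.06% of all genes. That of replicate 2 held summits at 4 of 30 (13.3%), those genes and sys-1, against 5.40% of all genes. Thus 3 genes, mom-1, mig-5 and wrm-1, were called by each of these lists, and cam-1, vang-1 and pop-1 by no replicate's own list.

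**Figure D1:**
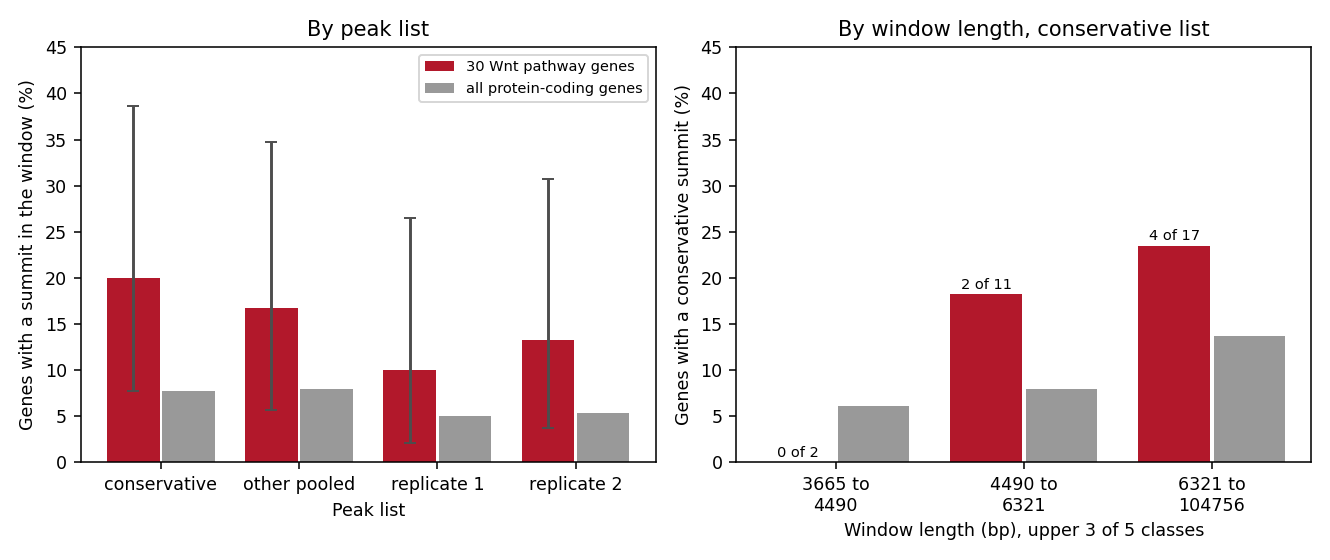
Left, percent of genes with a summit in the window for each peak list, with the 30 Wnt pathway genes in red (bars are exact 95% intervals) and all protein-coding genes in grey. Right, the same for the conservative list in the upper 3 of the 5 window-length classes; the red share is above the grey one in both of the longest classes and 0 of 2 in the middle class.

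By role, the conservative list bound 0 of 5 ligands, which allows a share of up to 52.2% (exact 95% limit). It bound 1 of 6 receptors (16.7%), 3 of 15 intracellular components (20%) and 2 of the 4 genes of secretion, inhibition and polarity (50%). Of all genes 7.75% were bound, or 11.1% weighted by the window lengths of all Wnt pathway genes together, not of each role. The last role had only windows of the longest class, where 13.7% of all genes were bound. The ligands had windows of the next and the middle class, with 7.96% and 6.13%. Receptors and intracellular components had windows of the longest and the next class. The intervals of the roles overlapped, from 0.421 to 64.1% for receptors, 4.33 to 48.1% for intracellular components and 6.76 to 93.2% for the last role, so no role could be set apart from another at these numbers.

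No ligand gene carried a conservative summit. The pooled discovery rates of their strongest ranked summits were all above the 1% limit. They were 2.78% at mom-2, 10.5% at egl-20, 24.8% at cwn-1, 28.6% at cwn-2 and 57.5% at lin-44. In the pool the highest ranked signal was that of mom-2, the Wnt that polarises an early embryonic blastomere, with 38.38 in replicate 1, 23.69 in replicate 2 and 56.12 in the pool. Its pooled summit lay in an intron, 410 bp from the start, with a discovery rate of 2.78%, above the 1% limit. In the replicates' own ranked lists the rates at mom-2 were 57.8% and 36.1%. lin-44, a Wnt made in the tail that orients divisions of tail cells, had 35.03 and 36.06 in the replicates and 54.78 in the pool, at a coding exon 2932 bp downstream of its start. The strongest summit of lin-44 lay elsewhere in replicate 1, 353 bp from the start, so the like values of the replicates do not mark a shared site. In replicate 2 lin-44 was the highest of the ligands, above egl-20 and mom-2.

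The remaining ligands were lower. cwn-1, a posteriorly expressed Wnt, had 32.52 and 19.89 in the replicates and 50.13 in the pool, 403 bp upstream. egl-20, a Wnt from cells around the rectum that directs the migration of the Q neuroblast descendants, had 26.29 and 23.79 and 45.07 in the pool, at its 3′ UTR. cwn-2, which acts in neuron migration and outgrowth, had 23.19 and 17.53 and 39.26 in the pool, 632 bp upstream. Replicate 1 gave the higher value at each of these 3. The median over the 5 ligands was 50.1 in the pooled ranked list, against 39.9 over all genes with a summit. Within their own window-length classes the ligands stood at percentiles from 54.6 for cwn-2 to 87.5 for mom-2 of the pooled signal, each above the median of its class. In the replicates 4 of 5 ligands stood above that median in replicate 1 and 3 of 5 in replicate 2, and cwn-2 stood below it in both, at 44.1 and 41.1.

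Among the receptors, the ROR receptor tyrosine kinase gene cam-1 was the bound member. Its peak, chrII:9299779-9300098, had a signal of 91.22 and ranked 807 of 1431. The ranked signal there was 52.08 in replicate 1 and 35.9 in replicate 2 (mean 44.0 ± 11.4, SD, n = 2), and neither replicate's thresholded list held it. The summit lay in an intron 10365 bp downstream of the first start and 616 bp upstream of an internal start, the nearest of the 4 annotated for cam-1 (WBGene00000289, chrII:9295915-9310304, minus strand). The peak is thus upstream of a shorter transcript, although it lies inside the gene.

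The Frizzled genes lin-17, mig-1, mom-5 and cfz-2 held no conservative summit, which does not set so few genes apart where 7.75% of all genes were bound. In signal, 2 of them came near the weakest bound Wnt pathway gene. lin-17, a Frizzled that acts in tail cell polarity, had 38.88 in replicate 1, 41.56 in replicate 2 and 66.77 in the pool, in an intron, with a discovery rate of 2.49%. The strongest lin-17 summit lay 6717 bp downstream of the start in replicate 1 and 3769 bp in replicate 2. The like values thus do not mark a shared site. mig-1, a Frizzled of neuroblast migration, had 33.33 and 33.23 in the replicates and 64.65 in the pool. That summit lay 23 bp upstream of the mig-1 start, and its rate of 1.21% was the lowest among the Wnt pathway genes not called. The other Frizzleds were lower: mom-5, which acts in the early embryo, had 23.93 and 20.87 in the replicates and 45.05 in the pool, 1404 bp upstream. cfz-2, another Frizzled of cell migration, had 26.99 and 15.65 and 45.79 in the pool, in an intron. The Ryk gene lin-18, known for vulval cell polarity, had 32.45 and 18.82 and 45.32 in the pool, at a coding exon. The receptors had a median of 55.2 in the pool (45.1 to 91.2), against 39.9 over all genes, and in the pool 5 of 6 stood above the median of their window-length class, with mom-5 at the percentile 38.8. In replicate 1 the count was also 5 of 6, but in replicate 2 it was 3 of 6, with cfz-2 at 18.4, mom-5 at 29.0 and lin-18 at 38.5.

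**Figure D2:**
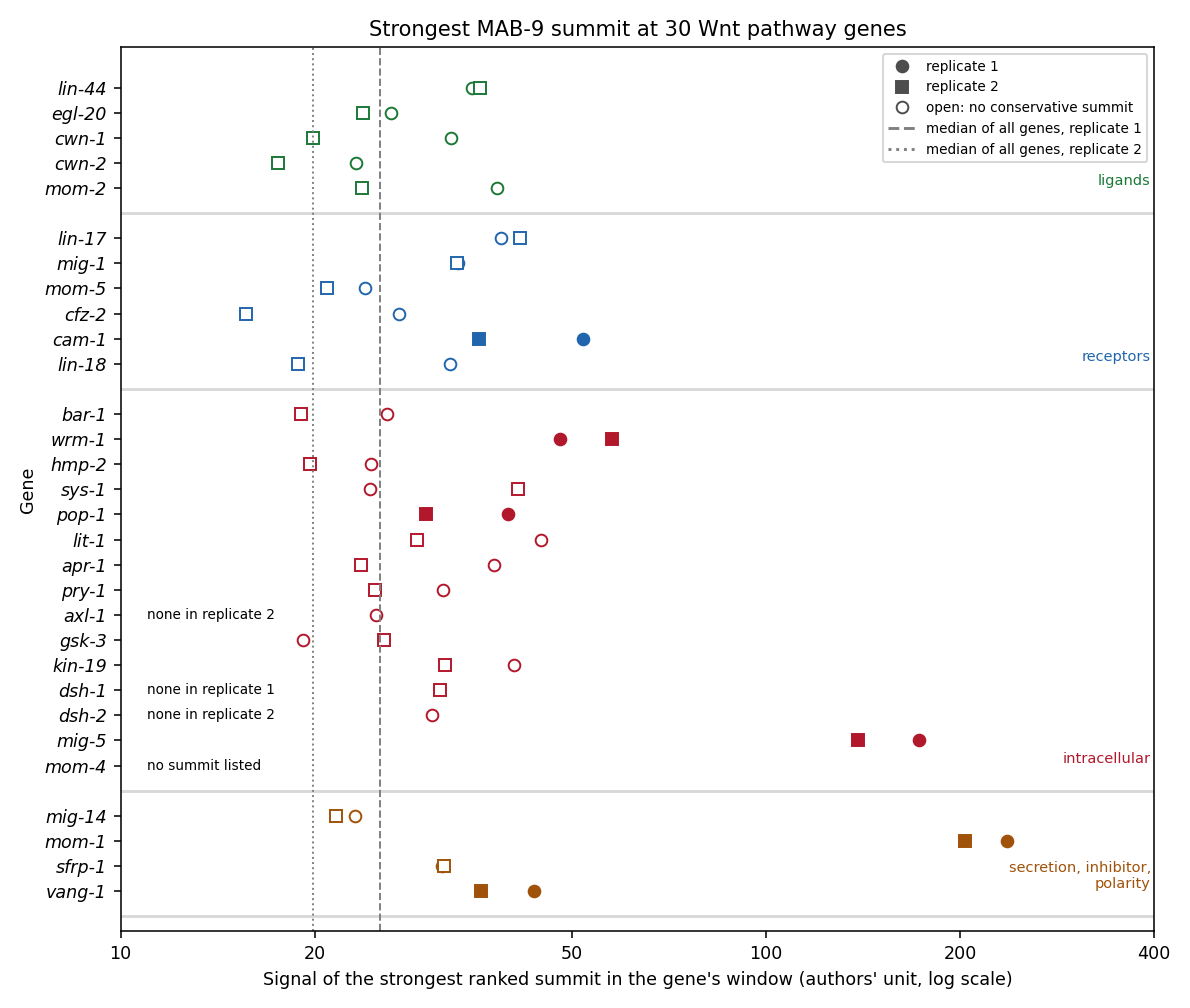
Signal of the strongest ranked summit in the window of each of the 30 genes, grouped by role, on a log axis; circles are replicate 1 and squares replicate 2. Filled symbols mark the 6 genes with a conservative summit, among which mom-1 and mig-5 lie far to the right of the rest, and the vertical lines mark the medians of all genes, 25.2 in replicate 1 and 19.9 in replicate 2.

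Of the intracellular components, mig-5, wrm-1 and pop-1 were bound. mig-5, a Dishevelled gene, had the strongest peak of the role, chrII:8185133-8185277, with a signal of 299.7 and rank 81 of 1431. The ranked signal was 172.8 in replicate 1 and 138.8 in replicate 2 (mean 156 ± 24.0, SD, n = 2), with discovery rates of 0.00157% and 0.001%. The summit lay 176 bp upstream of mig-5 (WBGene00003241, chrII:8182323-8185023, minus strand). It also lay 244 bp upstream of cct-1, a chaperonin subunit gene on the opposite strand, which was chosen for mention after its values were seen. Which of these divergent genes the peak belongs to was not tested.

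wrm-1 encodes the β-catenin that works with the kinase LIT-1 to lower nuclear POP-1. Its peak, chrIII:5721889-5722208, had a signal of 109.4 and ranked 604. The replicates gave 48.02 and 57.81 (mean 52.9 ± 6.93, SD, n = 2), so wrm-1 was the bound Wnt pathway gene with the higher value in replicate 2. The summit lay 801 bp upstream of wrm-1 (WBGene00006943, chrIII:5722850-5727115, plus strand), and no other protein-coding gene had its window there.

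pop-1, the TCF factor at the end of the pathway, had the weakest of the 6 peaks, chrI:2824850-2825169, with a signal of 70.65 and rank 1215. The replicates gave 39.79 and 29.73 (mean 34.8 ± 7.12, SD, n = 2), and in their own ranked lists the discovery rates were 21.8% and 63.6%. The summit lay in a coding exon 5301 bp downstream of the pop-1 start (WBGene00004077, chrI:2822243-2830311, minus strand), and the nearest start was that of W03D8.3, at 2876 bp. Both replicates thus listed a summit within 11 bp of the other's at pop-1, but neither list alone ranked it among its repeatable peaks.

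Of the 4 β-catenin genes, wrm-1 alone held a conservative summit. In their window-length classes 7.96% and 13.7% of all genes were bound, so this does not set so few genes apart. sys-1, the β-catenin that acts as coactivator of POP-1, had a peak in the thresholded list of replicate 2, chrI:9984777-9985076, with a signal of 41.2 at 133 bp upstream of the start. At sys-1 the ranked signal was 24.38 in replicate 1 and 41.23 in replicate 2, the lowest ratio of replicate 1 to replicate 2 among the Wnt pathway genes (log2 of -0.76). The pool gave 66.53 with a discovery rate of 10.3%, so sys-1 was not in the conservative list. A conservative peak of signal 284, chrI:9979762-9980081, overlapped the far end of the sys-1 window, but its summit lay outside, 260 bp upstream of eif-3.C, a translation initiation factor subunit gene. hmp-2, the β-catenin of adherens junctions, had 24.44 and 19.64 in the replicates and 39.05 in the pool, 1375 bp upstream. bar-1, the β-catenin of the route through POP-1 that acts in the Q lineage and the vulva, had 25.89 and 19.01 and 30.89 in the pool. That value put bar-1 at the percentile 4.33 of its class in the pool, with 27.0 in replicate 1 and 18.7 in replicate 2. The pooled discovery rates were 54.1% at hmp-2 and 57.5% at bar-1. wrm-1 stood at 95.7 in the pool, 94.0 in replicate 1 and 96.4 in replicate 2. sys-1 stood at 83.2 in the pool and 89.4 in replicate 2 but at 19 in replicate 1, below bar-1 there.

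The kinases and the destruction complex held no conservative summit. With 7.75% of all genes bound, this does not set so few genes apart. kin-19, a casein kinase 1 gene, had 40.67 and 31.88 in the replicates and 66.69 in the pool, at a coding exon, with a rate of 3.78%. lit-1, the Nemo-like kinase gene and the longest window of the 30, had 44.78 and 28.75 and 62.48 in the pool, in an intron. gsk-3, the glycogen synthase kinase gene, had 19.14 and 25.64 and 32.61 in the pool. In the pool gsk-3 stood at the percentile 6.20 of its class, with 3.69 in replicate 1 but 57.9 in replicate 2. kin-19 stood at 90.2 in the pool, 90.9 in replicate 1 and 88.3 in replicate 2. Its strongest summit lay at different places, 1834 bp downstream of the start in replicate 1 and 31 bp in replicate 2. apr-1, the APC gene, had 37.94 and 23.61 in the replicates and 63.33 in the pool, at a coding exon with a rate of 2.94%. In the replicates' own ranked lists the rates at apr-1 were 82.9% and 88.7%. pry-1, an Axin gene, had 31.65 and 24.76 and 54.43 in the pool, 843 bp upstream. The second Axin gene, axl-1, had 24.88 in replicate 1, no summit in replicate 2 and 44.01 in the pool. The pooled discovery rates were 18.8% at pry-1, 23.9% at lit-1, 57.8% at gsk-3 and 61.0% at axl-1.

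The pooled signals at the Dishevelled genes covered a wide range, but whether the mig-5 peak belongs to mig-5 or to cct-1 was not tested. Against 299.7 at mig-5, the pooled signal was 39.92 at dsh-2, with 30.42 in replicate 1 and no summit in replicate 2. dsh-1 had no summit in replicate 1, 31.24 in replicate 2 and 19.61 in the pool, the lowest pooled value among the 29 genes with one, at the percentile 0.278 of its class. The pooled value at dsh-1 rests on 1 summit in the window, next to a long gap described below. Replicate 2 listed 7 summits there and put dsh-1 at the percentile 78.6. The pooled discovery rates were 25.1% at dsh-2 and 85.4% at dsh-1. mom-4, a MAP3 kinase gene upstream of lit-1, had no summit in any of the 3 ranked lists, as had 241 of all protein-coding genes (1.21%).

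The missing summits lay in long stretches without any ranked peak. mom-4 sat in a gap of 19736 bp between summits in the pooled list, 17035 bp in replicate 1 and 23961 bp in replicate 2, and the gap was the longest of chromosome I in the pool and in replicate 2. The gap at dsh-1 measured 18202 bp in the pool, 19836 bp in replicate 1 and 3656 bp in replicate 2. In replicate 2, dsh-2 sat in a gap of 14952 bp and axl-1 in one of 11857 bp. The median distance between neighbouring summits was 608 bp in the pool, and 277 gaps in the genome exceeded 10000 bp there. Since no coverage was used, a region left out of the lists and a region without binding cannot be told apart, and the gaps carry no value.

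The last role held the strongest peak of all 30 genes, at mom-1, the Porcupine acyltransferase gene whose product lipidates Wnt proteins for secretion. The peak, chrX:6296450-6296692, had a signal of 429.7 and ranked 28 of 1431, where the median of the list was 98.7. The ranked signal was 236.2 in replicate 1 and 203.7 in replicate 2 (mean 220 ± 22.9, SD, n = 2), with a discovery rate of 0.001% in the pool and in both replicates. The summit lay in an intron 3442 bp downstream of the mom-1 start (WBGene00003394, chrX:6293112-6298305, plus strand) and 61 bp from an exon. The nearest annotated start was that of cest-16, 3388 bp away, so this strong peak stood far from any annotated protein-coding start.

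vang-1, the Van Gogh gene of planar cell polarity, was bound at its promoter. Its peak, chrX:2885339-2885658, had a signal of 77.17 and ranked 1084, with 43.73 in replicate 1 and 36.13 in replicate 2 (mean 39.9 ± 5.38, SD, n = 2). The summit lay 359 bp upstream of vang-1 (WBGene00015171, chrX:2885858-2890681, plus strand), and 3 annotated non-coding RNA genes lay within 200 bp of it. mig-14, the Wntless gene whose product carries Wnt proteins to the surface, had 23.09 and 21.55 in the replicates and 41.66 in the pool, at a coding exon. sfrp-1, which encodes a secreted Frizzled-related inhibitor, had 31.43 and 31.66 and 44.61 in the pool, in an intron. The pooled discovery rates were 20.4% at mig-14 and 44.0% at sfrp-1. The replicates' strongest summits at sfrp-1 lay over 150 bp apart, so the close values again come from separate sites.

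**Figure D3:**
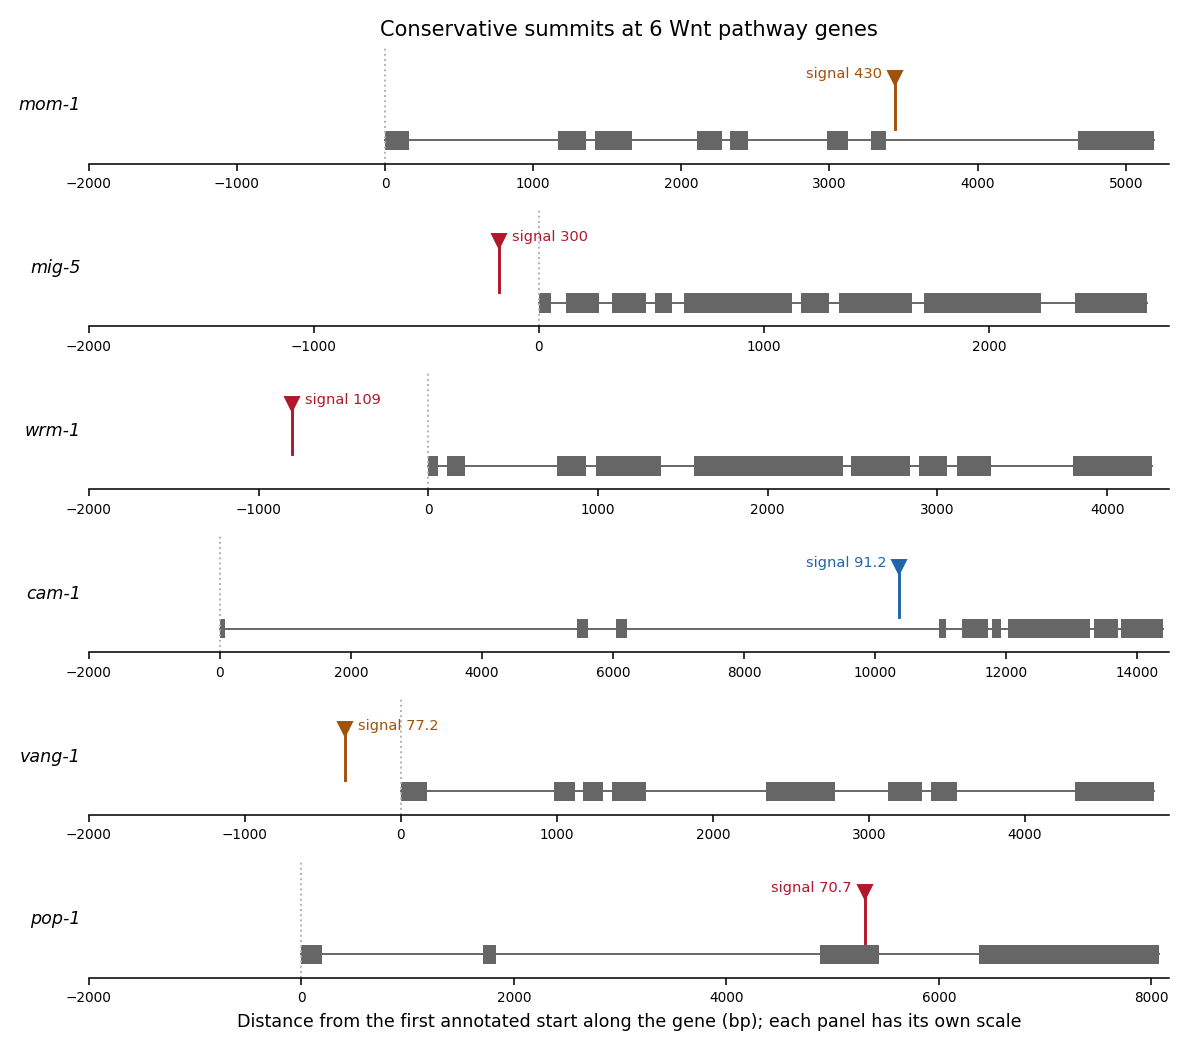
Maps of the 6 bound genes drawn along the direction of transcription, with exons as boxes, the x axis as distance in bp from the first annotated start (each panel has its own scale) and the conservative summit as a triangle with its signal. The summits of mig-5, wrm-1 and vang-1 lie upstream of the start, at 176, 801 and 359 bp, and those of mom-1, cam-1 and pop-1 inside the gene.

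The bound genes fell into strong and weak peaks. mom-1 and mig-5 had narrow peaks of 243 and 145 bp, while the other 4 had the full width of 320 bp. Only 134 of the 1431 conservative peaks (9.36%) were narrower than 320 bp, and these had a median signal of 320, against 93.0 for the full-width peaks. mom-1, mig-5 and wrm-1 were in both replicates' thresholded lists, as were 560 conservative peaks (39.1%). cam-1, vang-1 and pop-1 were in neither, as were 492 (34.4%). The next weaker Wnt pathway gene, lin-17 with 66.77 in the pool, lay close below the 70.65 of pop-1, so the call at the weak end rests on the discovery rate and not on a gap in signal.

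Over all 30 genes, the strongest pooled ranked signal had a median of 54.4 among the 29 with a summit, against 39.9 among the 19356 genes with one. The medians were 32.5 against 25.2 in replicate 1 and 28.8 against 19.9 in replicate 2. Longer windows hold stronger summits: over all genes the pooled median was 34.9 in the shortest class and 48.5 in the longest. Within their own class, 21 of the 29 Wnt pathway genes stood above the median of the pooled signal. In the replicates the counts were 20 of 28 in replicate 1 and 18 of 27 in replicate 2, where a class's median splits its genes evenly. By role the pooled medians were 50.1 for ligands, 55.2 for receptors, 58.5 for intracellular components and 60.9 for secretion, inhibition and polarity, and the ranges overlapped. The strongest pooled summit lay upstream of the first start in 12 of the 29 (41.4%), against 51.1% of all genes. It lay in an intron in 9 (31.0%), against 19.9%, and in a coding exon in 7 (24.1%), against 25.5%. These shares were not matched for window length. The upstream part was set at 2000 bp, while whole windows had a median of 6676.5 bp in Wnt pathway genes and 4027 bp over all genes. Whether the places differ at like window length was not tested.

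The replicates gave like signals but often different sites. Of the 26 Wnt pathway genes with a summit in both replicates, 26 had signals within 2-fold, against 88.9% of all genes. The log2 ratio of replicate 1 to replicate 2 had a median of 0.32 (-0.76 to 0.79), against 0.33 over all genes. Replicate 1 was higher in 20 of 26 genes (76.9%), against 74.8% of all genes. The strongest summits of the replicates lay within 150 bp in 6 of 6 bound genes, against 91.0% of all bound genes. In the Wnt pathway genes without a conservative summit they lay within 150 bp in 7 of 20 (35%), against 23.8% of all such genes. These 7 were egl-20, cwn-2, mom-2, mig-1, sys-1, apr-1 and mig-14, and in the other 13 the strongest signal came from different places. Conservative peaks had been kept for repeatable ranks, so the agreement at bound genes was in part selected for.

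**Figure D4:**
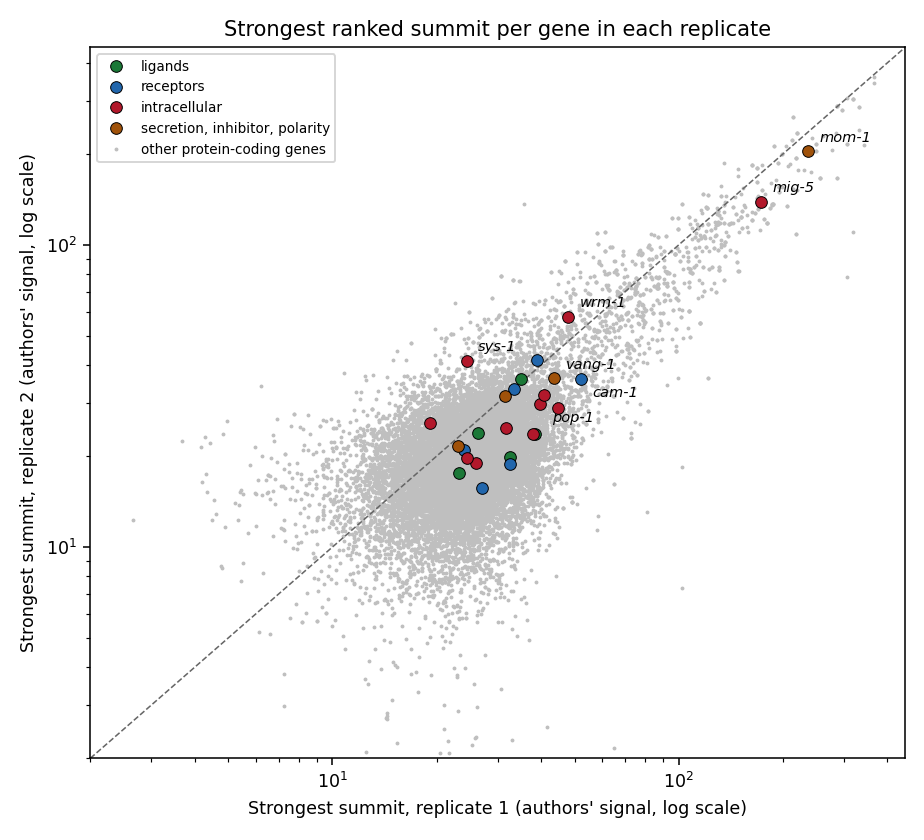
Strongest ranked signal per gene in replicate 1 (x axis) and replicate 2 (y axis), both on log scales in the authors' unit; large points are Wnt pathway genes coloured by role, grey points are other protein-coding genes, and the dashed line marks equal values. mom-1 and mig-5 lie at the upper right end, sys-1 lies above the line, and most unbound Wnt pathway genes lie inside the main cloud.

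Short sequence patterns were looked for on either strand in the 201 bp around each conservative summit. The T-box type patterns AGGTGTGA and AGGTGT were in 0 of the 6 Wnt pathway windows, against 0.21% and 4.96% of all 1431 windows (AGGTGT is part of AGGTGTGA). GAGAGAGA was in 0 of 6, against 9.64%, and CACGTG in 0 of 6, against 7.2%. TGATAA, a pattern of the GATA type, and CTTTGA, the core of the site bound by TCF proteins, were each in 1 of 6 windows, against 8.39% and 8.46%. Both were in the wrm-1 window printed above, CTTTGA at positions 24 to 29 and TGATAA at positions 192 to 197 and, on the reverse strand, 155 to 160, counted from the left end. A match is a run of letters and not a shown site, and with 6 windows shares of this size cannot be compared. The GC content had a median of 42.8% in the 6 windows (40.3 to 56.2%), against 44.8% in all, and vang-1 was the window at 56.2%.

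Beyond the 30 genes, 32 other Wnt-related genes were listed by role, and 5 of them held a conservative summit (15.6%, exact 95% interval 5.28 to 32.8%), against 7.75% of all genes. The bound genes dpy-23, hmr-1, hmp-1 and cbp-1 had windows of the longest class, where 13.7% of all genes were bound. That of tlp-1 was in the next class, with 7.96%. No share weighted by the window lengths of these 32 genes was computed, and 7.75% lies within their interval. cbp-1, the CBP/p300 coactivator gene, had the strongest, 317.1, with 176.8 in replicate 1 and 147.3 in replicate 2, 868 bp upstream. tlp-1, a zinc finger gene of tail development, had a peak of 153.0 (71.81 and 74.13 in the replicates) 81 bp upstream and another of 99.14 in a coding exon. dpy-23, an AP2 adaptor subunit gene that acts in the recycling of MIG-14, had 115.3 (76.85 and 43.45) 362 bp upstream. The tlp-1 window at the upstream summit held AGGTGTGA at positions 28 to 35 and GAGAGAGA at 181 to 188, both on the reverse strand. The replicate summits lay at positions 105 and 106. The other windows of the 5 genes held neither pattern, nor did the Wnt pathway windows. AGGTGTGA was in 0.21% of all windows and GAGAGAGA in 9.64%, so their absence from so few windows carries no weight.

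The cadherin and α-catenin genes of the adherens junction, whose complex includes HMP-2, were bound inside the gene. hmp-2 itself and jac-1, which was listed with that complex, held no conservative summit. jac-1 was picked for mention after its values were seen. In the window-length classes of these genes 7.96% and 13.7% of all genes were bound, so the calls do not set so few genes apart. hmp-1, the α-catenin gene, had 93.18 (38.93 in replicate 1 and 50.25 in replicate 2) in an intron, 327 bp downstream of an internal start. hmr-1, the cadherin gene, had 65.46 (38.31 and 30.82) in an intron, 9737 bp downstream of its first start, in a window of 60913 bp. The nearest start was that of Y52B11B.1, at 1190 bp. Neither replicate's thresholded list nor the second pooled list held the hmr-1 peak. In the replicates' ranked lists its discovery rates were 45.1% and 21.7%. None of the retromer-related genes vps-35, vps-26, vps-29 and snx-3, which act in the recycling of MIG-14, held a conservative summit. They were picked for mention after their values were seen. In their window-length classes 4.78 to 7.96% of all genes were bound, so this absence does not set so few genes apart. The Hox gene lin-39, which was picked for mention after its values were seen, had summits in the second pooled list (89.1 and 62.6) and in both replicates' thresholded lists (38.5 in replicate 1 and 61.0 in replicate 2), but none in the conservative list. These replicate peaks lay at different places, 6342 bp downstream of the first start in replicate 1 and 144 bp upstream in replicate 2. The other Hox genes listed, mab-5, egl-5 and ceh-13, had no summit in the conservative list, the second pooled list or either replicate's thresholded list. They too were picked for mention after their values were seen.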

How the data were processed

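MAB-9 peaks from whole larvae at the L1 stage, pulled down by the tag with an anti-GFP antibody, were read for 2 replicates that the labels place in 1 group. The build is ce11, per the labels. The signal deposited for each peak has an unnamed unit, and it served to describe and rank peaks. The ranked lists hold the −log10 of the irreproducible discovery rate, per the file headers, and it is printed here as a percent. Each list was derived from alignments and a control file, per the file headers. Neither aligner nor peak caller is given in the sources used here. Depth per sample is unknown, so no interval that needs it is given. The ranked list behind the second pooled list was not used.

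Gene windows came from Ensembl release 115, and sequence came from RefSeq's ce11 assembly. Peaks of different lists were matched when they shared 50% or more of the shorter one. Nearest starts were taken from the protein-coding transcripts of protein-coding genes, and exons from all transcripts of these genes. Percentiles of a gene's strongest summit were taken among genes with a summit in the same of 5 equal window-length classes. Intervals are exact (Clopper-Pearson) and cover no difference between replicates. No test was run, since there is 1 group and genes are not replicates. Counts are given beside the percent of all protein-coding genes called by the same rule.

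Named are all 30 genes, the other Wnt-related genes with a conservative summit, and a neighbouring gene where its start is nearer. Outside this rule, some genes were named after their values were seen. These were cct-1, jac-1, the Hox genes lin-39, mab-5, egl-5 and ceh-13, and 4 retromer-related genes (vps-35, vps-26, vps-29 and snx-3). The genes, lists and patterns were chosen with earlier results of these data known. Alternatives were the second pooled list, each replicate's list, the peaks above the median signal, other windows and gene assignments. On simulated data 200 of 200 genes given a planted summit were called, and 19973 of 19973 calls matched a direct count. The tools were Python 3.11.15 with SciPy 1.17.1, pandas 2.3.3, matplotlib 3.10.9 and NumPy 2.4.6.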

Additional observations from a re-analysis of the deposited data

Results flagged for a closer look

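sys-1, the β-catenin gene that acts with POP-1, carried a peak of signal 41.2 in the thresholded list of replicate 2, 133 bp upstream of its start, although the conservative list has no summit in its window. It was singled out because it is a signal outside the main list. The ranked signal was 24.38 in replicate 1 and 41.23 in replicate 2, and the difference between the replicates was not tested.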

How the results depend on the processing

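wrm-1 and mig-5 were called in 9 of 9 alternatives, mom-1 and vang-1 in 6, cam-1 in 5, and pop-1 and sys-1 in 2; no ligand was called in any. Against 6 bound Wnt pathway genes, the peaks above the median signal and the upstream part of the window left 3 each, and single replicates 3 to 4. Receptors, 1 in the conservative list, fell to 0 under that signal limit, the upstream part and either replicate alone. Secretion, inhibition and polarity genes, 2 in that list, fell to 1 under that signal limit, the upstream part, windows to 250 bp past any start, the nearest start within 2000 bp, and either replicate alone. The other Wnt-related genes, 5 in that list, fell to 3 under that signal limit, the upstream part and windows at any start, and to 3 to 4 with single replicates. The share of all genes, 7.75%, fell too under these settings. It was 4.64% with that signal limit, 4.98% by nearest start and 5.06 to 5.40% with single replicates. For the upstream part it was 6.12%, and for windows to 250 bp past any start 6.83%. By window length it was 4.78% in the second shortest class and 13.7% in the longest. The median over Wnt pathway genes of the mean replicate signal, 31.3, was 21.8 upstream of the start, 28.8 to 32.5 with single replicates, and 54.4 in the pooled ranked list. The cause was not tested. No paired analysis was possible because there is only 1 group. With 30 genes, unknown depth and 2 replicates, differences between roles were not detectable.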
